A study of Mus musculus with 4 samples.

Results

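The genes described here are 45 genes of mitosis and the G2/M transition, out of 31053 genes in the deposited matrices. They were chosen by symbol, from a list made with earlier results of these data known. All 45 were found. They were measured by single-cell RNA sequencing of cells positive for the red fluorescent reporter TOM, sorted alive from mouse duodenal crypts, with 2 libraries per genotype. The WT libraries carry the label genotype Atoh1CreER-T2;R26RTom and the APC-KO libraries Atoh1Cre;Apcfl/fl;R26RTom, and the series description names the inducible CreER-T2 form for both. Both genotypes therefore carry the reporter and an Atoh1-driven recombinase, and both received tamoxifen at 1 mg/mL in 2 doses 24 h apart, with harvest 12 h after the last dose. Atoh1 is a transcription factor of the secretory lineage, so the reporter marks cells in which that promoter was active and their progeny, and the sort sets which cells entered the libraries. Neither animal, age, sex nor sequencing batch is given for a library. The p-values below therefore measure the spread between 2 libraries per genotype, which may be technical.

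The authors' tables kept 4814 cells in WT replicate 1, 3821 in WT replicate 2, 356 in APC-KO replicate 1 and 6243 in APC-KO replicate 2, with between 3009636 and 27285079 unique molecular identifiers (UMIs, 1 per captured transcript) in kept cells. APC-KO replicate 1 stood apart, with 5.15% of its UMIs in kept cells against 37.6% to 50.3% in the others, and it held 13 ISC, 5 SEC-PRO, 11 ENTERO-PRO, 16 PANETH and 11 PANETH-PRE cells. Results are therefore also given without it where that changes them. At most 8 cell barcodes were shared between any pair of libraries. The 12 cell type names are the authors' and are printed as deposited. Marker levels were checked for the names used most here. Olfm4, a crypt stem cell marker, had 2349 to 3820 UMIs per 1000000 (CPM) in the ISC sums of the 4 libraries and 77.8 to 231 CPM in SEC-PRO. Dll1, a Notch ligand of early secretory cells, had 126 to 246 CPM in SEC-PRO and 19.0 to 34.8 CPM in ISC. It is 1 of 4 SEC-PRO markers, with Atoh1, Spdef and Neurog3. Their sum was 357 to 645 CPM in SEC-PRO and 26.4 to 73.5 CPM in ISC. It was 491 to 730 CPM in GP and 1471 to 2288 CPM in EEC-PRE, so these markers were not highest in SEC-PRO. Lyz1, the Paneth cell lysozyme, had 18538 to 39228 CPM in PANETH. Apc, the targeted gene, was at 87.2 and 77.9 CPM over all kept WT cells and at 88.1 CPM in both APC-KO libraries. The chemistry reads 3' ends and the floxed exons are not named in the labels, so this level checks neither the deletion nor the labels.

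Cells that divide make the transcripts of the mitotic machinery late in the cycle. The kinase Cdk1 with its B-type cyclins starts mitosis, condensin and topoisomerase II alpha shape the chromosomes, kinetochore proteins attach them to a spindle built by motor and microtubule-binding proteins, and the anaphase-promoting complex with Cdc20 and Ube2c ends the phase before cytokinesis. In the crypt, stem cells and early progenitors divide, whereas mature goblet and Paneth cells are known as post-mitotic. Promoters of many late cell cycle genes hold CCAAT boxes, bound by NF-Y, and a cell cycle homology region with the letters TTTGAA or TTCGAA, bound by the DREAM and MuvB complexes.

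Promoter sequences from RefSeq (GRCm38.p6) were matched by symbol for 39 of the 45 genes. In the 250 bases before the start site, CCAAT on either strand was present in 31 of 39 (79.5%) and in 37.5% of 27025 genes with a promoter in the table. At least 2 CCAAT were present in 24 of 39 (61.5%) against 11.5% of all genes. TTTGAA or TTCGAA on either strand was present in 16 of 39 (41.0%) against 19.6%. With the 50 bases after the start included, this became 30 of 39 (76.9%) against 21.7%, and both kinds of motif were present in 27 of 39 (69.2%) against 8.61%. Among 33 genes of a comparison list of S phase genes, 7 (21.2%) held TTTGAA or TTCGAA in the longer window, and among 50 other G2/M genes 35 (70%) did. CCAAT in the 250 bases was present in 66.7% of these S phase genes and in 62% of the other G2/M genes. These are letter matches and not measured binding. The 250 bases before the start of 4 genes are shown because these 4 passed the test in a Paneth fit or between the Paneth and goblet lineages below. They are written 5′ to 3′ on the strand of the gene, with CCAAT and TTTGAA and TTCGAA and their reverse complements in capitals, and none of the windows overlaps an exon of GENCODE vM21.
Mki67, chr7:135716380-135716629, minus strand: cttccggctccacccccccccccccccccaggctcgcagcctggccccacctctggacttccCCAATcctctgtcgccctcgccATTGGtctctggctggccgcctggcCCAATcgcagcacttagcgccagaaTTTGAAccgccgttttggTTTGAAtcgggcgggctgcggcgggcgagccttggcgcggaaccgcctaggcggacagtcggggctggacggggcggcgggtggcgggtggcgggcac
Top2a, chr11:99024190-99024439, minus strand: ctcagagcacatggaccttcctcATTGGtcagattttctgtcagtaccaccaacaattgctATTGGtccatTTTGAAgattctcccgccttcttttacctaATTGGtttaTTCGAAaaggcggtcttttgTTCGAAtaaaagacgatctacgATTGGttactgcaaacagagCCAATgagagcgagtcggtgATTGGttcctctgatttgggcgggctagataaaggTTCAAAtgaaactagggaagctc
Hmgb2, chr8:57511593-57511842, plus strand: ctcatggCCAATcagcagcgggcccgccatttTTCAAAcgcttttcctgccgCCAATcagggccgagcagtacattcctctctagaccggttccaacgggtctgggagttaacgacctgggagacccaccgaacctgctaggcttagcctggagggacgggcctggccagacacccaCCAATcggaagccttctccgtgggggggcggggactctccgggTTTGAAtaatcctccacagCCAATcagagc
Kif23, chr9:61946800-61947049, minus strand: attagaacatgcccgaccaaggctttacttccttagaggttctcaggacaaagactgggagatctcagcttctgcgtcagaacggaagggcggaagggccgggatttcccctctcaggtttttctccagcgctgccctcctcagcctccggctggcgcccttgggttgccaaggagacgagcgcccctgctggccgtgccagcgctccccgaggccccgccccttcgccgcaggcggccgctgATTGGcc
The Top2a window held 6 CCAAT, 2 TTTGAA and 2 TTCGAA, the Hmgb2 window 4 CCAAT and 2 TTTGAA, and the Mki67 window 3 CCAAT and 2 TTTGAA. The Kif23 window held 1 CCAAT, 7 bases before the start, and neither of the other motifs.

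Across the 12 types, the mitotic genes were concentrated in SEC-PRO and ISC. The mean share of a cell's UMIs that fell in the 45 genes was 0.615% and 0.435% in SEC-PRO of WT replicates 1 and 2, and 0.485% and 0.352% in ISC. The next types in WT, EEC-PRE and ENTERO-PRO, had 0.0846% to 0.0925%. GOBLET, with 0.0221% and 0.0154%, and PANETH, with 0.0253% and 0.0165%, were lowest. These 2 pairs of WT values overlapped, so the order of the lowest types was not resolved. In the same WT libraries, barcodes with 1 to 50 UMIs, which hold free RNA rather than cells, had a share of 0.275% and 0.240%. Shares in the low types of WT were thus below that of the free RNA, and part of their UMIs can come from it. The free RNA share was 0.166% in APC-KO replicate 1 and 0.290% in APC-KO replicate 2. PANETH of APC-KO replicate 1 had a mean share of 0.171%, which was not below the free RNA of that library. The types were named by the authors from expression, so this order is a description with no test.

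**Figure D1:**
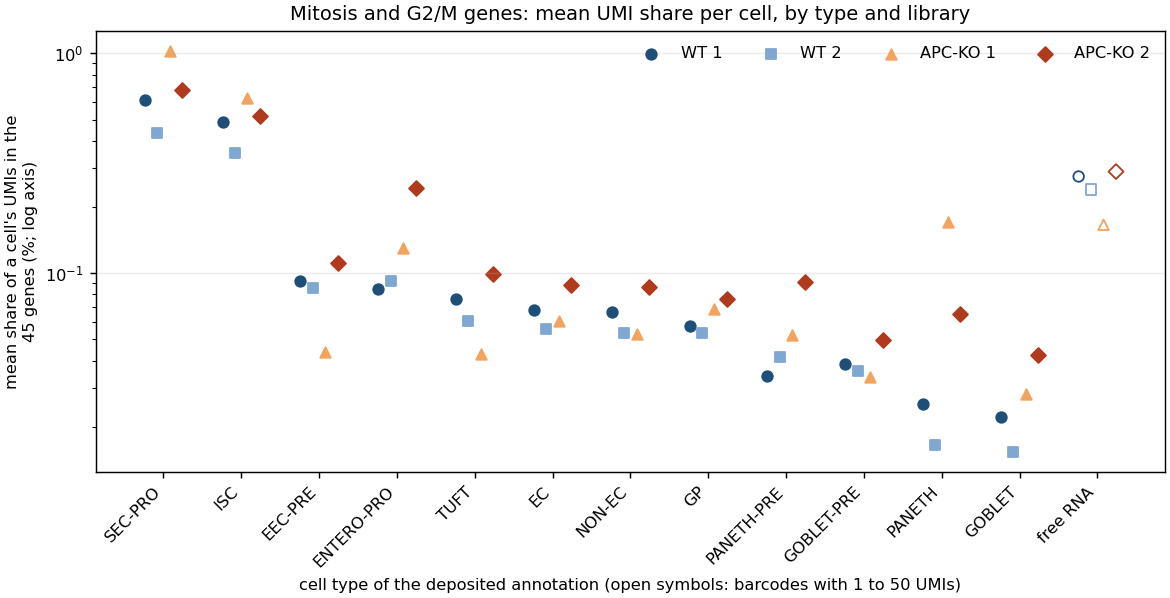
Mean share of a cell's UMIs in the 45 mitosis and G2/M genes (percent, log axis) for each cell type and library, with open symbols for the free RNA of barcodes with 1 to 50 UMIs. SEC-PRO and ISC lie between 0.352% and 1.02% in all 4 libraries, and the PANETH values of both APC-KO libraries lie above both WT values.

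In WT, 40 of the 45 genes had their highest level in SEC-PRO and 4 in ISC (Gtse1, Kif23, Cdca3 and Nuf2). The ratio of the SEC-PRO level to the ISC level had a median of 1.31 over the 45 genes, from 0.759 to 1.90. The ISC level was above the GOBLET-PRE level for each of the 45 genes, with a median ratio of 22.2 and a range from 2.18 to 112. Hjurp, the chaperone that loads the centromeric histone Cenpa, was the exception to the pattern. By its WT mean it was highest in EC, with 164 and 122 CPM in WT against 216 and 158 CPM in APC-KO, and it had 146 and 134 CPM in NON-EC of WT, so that NON-EC was above EC in WT replicate 2. Its ISC values were 136, 130, 79.2 and 144 CPM.

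Together, ISC and SEC-PRO held 79.6% and 67.1% of the UMIs of these genes in the WT libraries, from 23.2% and 16.1% of the cells. In APC-KO replicate 1 they held 40.3% from 5.06% of the cells, and in APC-KO replicate 2 78.8% from 33.8%. The libraries ranked by their mean share over all kept cells in the same order as by these shares of cells. The mean share over all cells was 0.168% and 0.101% in WT and 0.0839% and 0.259% in APC-KO, so the APC-KO libraries had both the lowest and the highest value. Hmgb2, a chromatin protein of the high-mobility group, had 424, 245, 164 and 818 CPM over all kept cells, and Mki67, the coat protein of mitotic chromosomes, 158, 80.9, 31.9 and 238 CPM. In such sums, fewer dividing cells and less RNA per cell cannot be told apart. Of 13345 genes tested over all kept cells edgeR called 0 (0% of genes), and 0 of the 45 mitotic genes passed or reached an unadjusted p under 0.05, which 2.26% of all genes did as higher. Of the 45, 41 were higher in APC-KO, against 50.9% of all genes, with a median log2 fold change of 0.41. Without APC-KO replicate 2 this median was -1.15, and without APC-KO replicate 1 it was 1.03, with 4 genes called, where 2.18% of all genes were called higher. With each type given its mean WT proportion of cells, a weighting that was not planned, the mean share was 0.150%, 0.115%, 0.209% and 0.178%, and the groups no longer overlapped. The value of APC-KO replicate 1 rests largely on its SEC-PRO and ISC shares, 1.02% and 0.627%, from 5 and 13 cells. The part of cell composition in the overlap was not tested.

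In ISC, 8 mitotic genes rose in APC-KO and none fell. By role they were 4 spindle genes and 1 gene each of cytokinesis, chromatin, mitotic entry and mitotic exit. Nusap1, which bundles spindle microtubules, had 73.2 and 36.9 CPM in WT against 158 and 155 CPM in APC-KO. Both APC-KO values lay above both WT values. The gene lies at chr2:119618298-119651244 (GRCm38, plus strand), where its exons overlap exons of Oip5 on the other strand. By edgeR it rose by 1.47 on the log2 scale, with SE 0.22 and adjusted p 2.85e-08 from 2 libraries per group. Prc1, which holds the spindle midzone together, had 91.3 and 48.2 CPM in WT against 237 and 142 CPM in APC-KO (log2 fold change 1.13, SE 0.22, edgeR adjusted p 8.26e-05). Top2a, the topoisomerase that untangles chromosomes, had 368 and 207 CPM in WT against 554 and 541 CPM in APC-KO (log2 fold change 0.94, SE 0.29, edgeR adjusted p 0.0346). Aurka, a spindle pole kinase, had 24.5 and 12.8 CPM in WT against 52.8 and 39.8 CPM in APC-KO (log2 fold change 1.05). Ckap2l, a spindle protein, had 36.2 and 15.6 CPM in WT against 52.8 and 52.0 CPM in APC-KO (0.92). Ube2c, the ubiquitin-conjugating enzyme of the anaphase-promoting complex, had 180 and 108 CPM in WT against 449 and 194 CPM in APC-KO (0.84). In these 6 genes both APC-KO libraries lay above both WT libraries. The ISC sum of APC-KO replicate 1 holds 75796 UMIs from 13 cells, so its values of Aurka and Ckap2l rest on few UMIs.

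The other 2 called genes overlapped between the groups. Tacc3, a spindle microtubule protein, had 32.7 and 22.0 CPM in WT against 13.2 and 59.8 CPM in APC-KO. Ckap2, a spindle-associated protein, had 21.9 and 22.0 CPM in WT against 13.2 and 45.1 CPM in APC-KO. Each of their values in APC-KO replicate 1 rests on 1 UMI. Their log2 fold changes of 1.06 and 1.05 became -1.17 and -0.77 without APC-KO replicate 2.

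The 8 calls are 8 of 44 tested members, where edgeR called 3.57% of all 9792 genes in ISC. Of the 44, 41 were higher against 48.9% of all genes, with a median log2 fold change of 0.46 against -0.01, and 20 had an unadjusted p under 0.05 in that direction, against 6.73%. Both APC-KO libraries lay above both WT libraries for 20 of 44, against 11.9% of all genes. By role, 11 of 11 spindle genes were higher and 4 were called (Nusap1, Tacc3, Ckap2 and Ckap2l), 6 of 6 cytokinesis genes were higher with 1 called (Prc1), and 6 of 6 chromatin and nuclear envelope genes were higher with 1 called (Top2a). Of 8 mitotic entry genes 6 were higher and 1 was called (Aurka), of 8 kinetochore genes 7 were higher and none was called, and the 3 chromosomal passenger genes were higher and not called. The members with the lowest values were Cdk1, the kinase of mitotic entry (-0.09, SE 0.22), Cenpa, the centromeric histone (-0.07, SE 0.22) and Cdca3, a trigger of mitotic entry (-0.05, SE 0.23). Cdk1 had 63.3 and 52.5 CPM in WT against 92.4 and 51.1 CPM in APC-KO.

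The ISC calls depended on single libraries. With WT replicate 2 left out edgeR called none, and 1 gene had an unadjusted p under 0.05, while 3 passed with WT replicate 1 left out, 2 with APC-KO replicate 2 left out and 12, with 7 of the 8 among them, without APC-KO replicate 1, where 4.23% of all genes were called higher. With the replicate number as a block 2 passed, Nusap1 and Prc1, and with cells thinned to 2000 UMIs only Nusap1 (log2 fold change 1.08). The DESeq2 Wald test called none, with 4 at an unadjusted p under 0.05 and an adjusted p of NA for 7 of the 8.

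**Figure D2:**
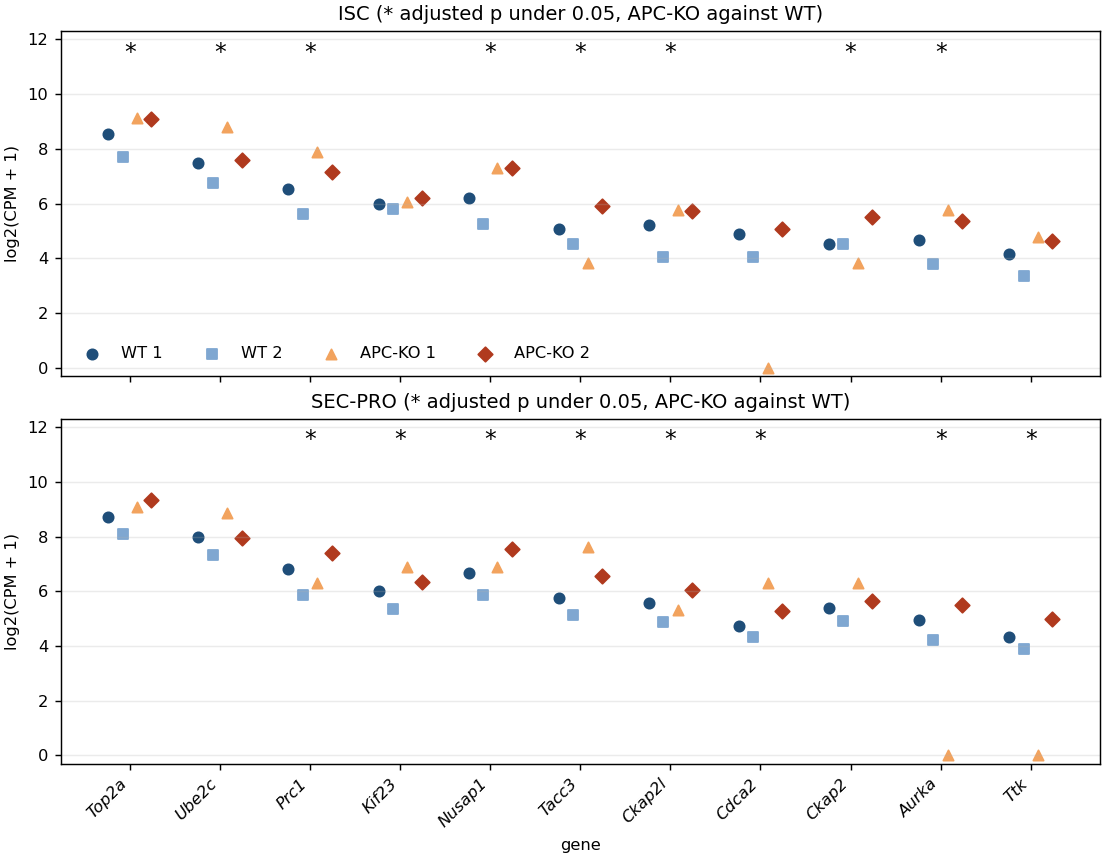
Levels of the 11 genes called in ISC or SEC-PRO, as log2(CPM + 1), by library, with an asterisk where the adjusted p is under 0.05 in that type. The WT replicate 2 values are the lowest of the non-zero values for most genes, and the APC-KO replicate 1 values, from 13 and 5 cells, scatter most.

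In SEC-PRO, 8 genes rose and none fell, in a fit added after the data had been seen because APC-KO replicate 1 holds 5 cells of this type. Nusap1 had 99.3 and 57.1 CPM in WT against 117 and 186 CPM in APC-KO (log2 fold change 1.26, SE 0.23, edgeR adjusted p 5.25e-06). Tacc3 had 53.0 and 33.7 CPM in WT against 194 and 92.0 CPM in APC-KO (log2 fold change 1.18, SE 0.23, edgeR adjusted p 2.54e-05). Kif23, the centralspindlin kinesin, had 63.8 and 40.0 CPM in WT against 117 and 80.7 CPM in APC-KO (0.71), and Cdca2, a phosphatase subunit of mitotic chromosomes, 25.7 and 18.9 CPM and 77.8 and 38.2 CPM (0.86). In these 4 genes both APC-KO libraries lay above both WT libraries, with 2 to 5 UMIs each in APC-KO replicate 1. Prc1 (0.99), Ckap2l (0.84), Aurka (0.92) and Ttk, a spindle checkpoint kinase (0.94), were also called, and their groups overlapped. Aurka and Ttk had 0 UMIs in APC-KO replicate 1.

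These are 8 of 45 tested members, where edgeR called 3.57% of 9907 genes in SEC-PRO. Of the 45, 42 were higher against 48.1% of all genes, with a median of 0.43 against -0.02. Both APC-KO libraries lay above both WT libraries for 16 of 45, against 10.4% of all genes. Without APC-KO replicate 1 the count was 10, with each of the 8 among them, and 3.92% of all genes were called higher. Leaving out APC-KO replicate 2 or WT replicate 2 gave 0 edgeR calls each, with 5 and 2 genes under an unadjusted p of 0.05, and leaving out WT replicate 1 gave 1. With the replicate block 1 gene passed, and the DESeq2 Wald test called none, with 2 at an unadjusted p under 0.05. Nusap1, Tacc3, Prc1, Aurka and Ckap2l were thus called in both ISC and SEC-PRO. These fits share libraries but not cells.

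**Figure D3:**
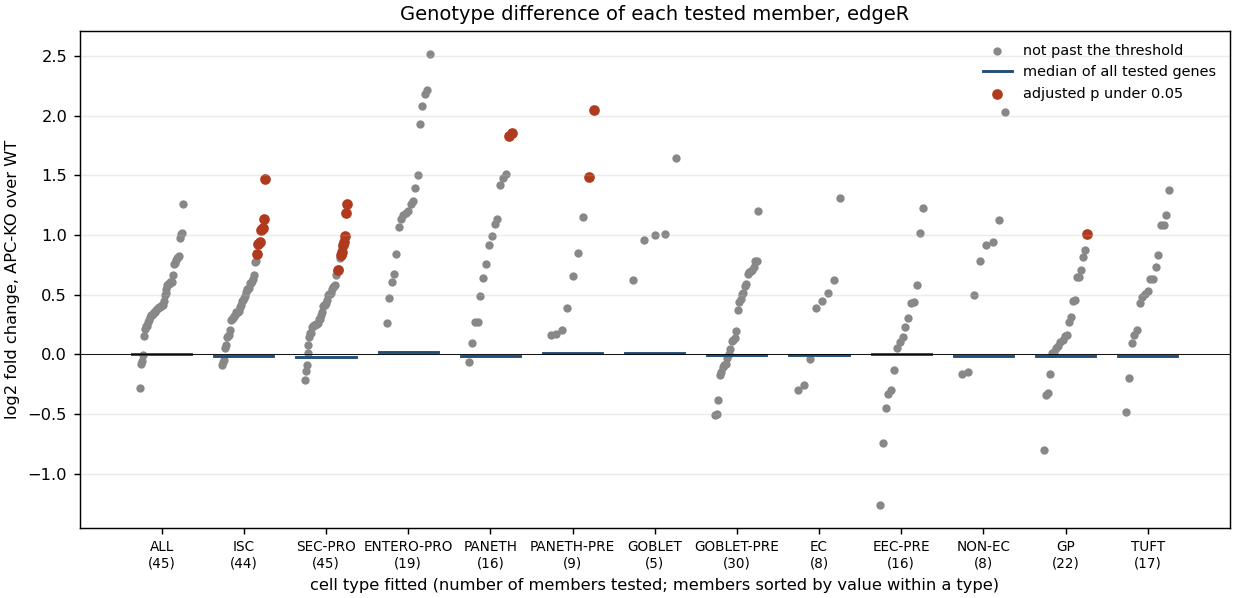
Log2 fold change of APC-KO over WT for each tested mitotic gene in each edgeR fit, sorted within a fit, with called genes in red and the median of all tested genes as a blue line. No gene is called below 0, and the tested genes lie above the line in most fits.

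Other genes of the same pathway were taken from a list of 62 that are not members. In ISC 8 of 62 were called higher and none lower, among them Sgo1, which guards centromeric cohesion (1.29, SE 0.24), Trip13, a checkpoint ATPase (1.29, SE 0.25), and Stil, a centriole assembly factor (1.28, SE 0.35). The median of the 62 was 0.45. Their mean share of a cell's UMIs in ISC overlapped between the genotypes, with 0.323% and 0.268% in WT and 0.382% and 0.322% in APC-KO. In SEC-PRO 10 of 62 were called higher and none lower, with Trip13 at 1.40 (SE 0.26), Pbk, a mitotic kinase, at 1.25 (SE 0.22) and Sgo1 at 1.24 (SE 0.23). A list of 45 S phase genes was set beside them. In ISC its median was -0.05, with 2 genes called lower, Pcna, the sliding clamp of replication (-0.92, SE 0.22), and Tipin, a replication fork protein (-0.78, SE 0.22), and none called higher. In SEC-PRO its median was 0.03 and Pcna was the only gene called, at -0.90 (SE 0.24). The difference between the lists was not tested.

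The share of cells with many mitotic UMIs was compared after thinning each cell to 2000 UMIs. In ISC, cells with at least 10 such UMIs made up 37.8% (exact 95% interval 33.8% to 42.0%) and 24.9% (19.3% to 31.1%) in WT and 70.0% (7 of 10 cells, 34.8% to 93.3%) and 42.4% (39.6% to 45.2%) in APC-KO. In SEC-PRO they made up 50% (45.7% to 54.3%) and 35.3% (30.5% to 40.3%) in WT and 75.0% (3 of 4 cells, 19.4% to 99.4%) and 56.4% (52.9% to 59.8%) in APC-KO. Both APC-KO values lay above both WT values in each type, and the intervals of WT replicate 1 and APC-KO replicate 2 overlapped in both. The intervals cover counting error only. The class is a range of a sum and not a cell type, and in ISC 97, 37, 0 and 159 cells lay between 8 and 12 UMIs. The 7 ISC cells of APC-KO replicate 1 with at least 10 UMIs had a median of 0.0382% of their UMIs in the 6 ISC markers, against 0.233% to 0.313% in such cells of the other libraries.

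**Figure D4:**
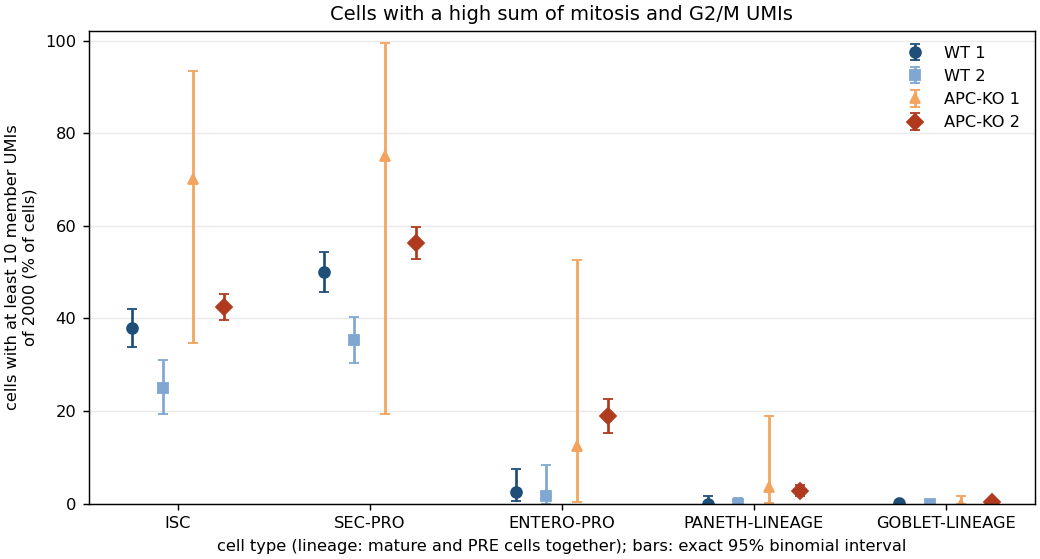
Share of cells with at least 10 UMIs of the 45 genes among 2000 (percent of cells) by type and library, with exact 95% binomial intervals. ISC and SEC-PRO reach 24.9% to 75.0%, ENTERO-PRO 1.56% to 18.8% and the Paneth and goblet lineages at most 3.70%.

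ENTERO-PRO had higher values in APC-KO for each of its 19 tested genes, and none passed the test. The median log2 fold change was 1.20 against 0.02 for all genes, of which 51.8% were higher, 15 of 19 had an unadjusted p under 0.05 by edgeR against 4.87% of all genes in that direction, and edgeR called 0.0788% of the 6348 genes tested. The largest values were those of Top2a (2.52, SE 0.51), Cdc20, the activator of the anaphase-promoting complex (2.22, SE 0.44), and Cenpe, a kinetochore kinesin (2.18, SE 0.46). Cdc20 had 11.9 and 6.51 CPM in WT against 56.2 and 43.0 CPM in APC-KO. Cenpe had 6.59 and 15.2 CPM in WT against 28.1 and 45.0 CPM in APC-KO, and neither gene overlapped between the groups. Both genes passed the low-count filter, which asks for 2 libraries above a cutoff, only through the APC-KO libraries. Their direction was thus set by the filter, and the count of 19 higher genes is in part built in. The same filter held for all genes. Top2a had 18.4 and 13.03 CPM in WT, no UMI in the 11 cells of APC-KO replicate 1 and 103.5 CPM in APC-KO replicate 2. Without APC-KO replicate 1, 21 genes were called, where 3.31% of all genes were called higher, and without APC-KO replicate 2 the median was 0.42 with 1 gene called. Cells with at least 10 mitotic UMIs of 2000 made up 2.61% and 1.56% in WT, 12.5% (1 of 8 cells) in APC-KO replicate 1 and 18.8% (15.4% to 22.7%) in APC-KO replicate 2. In APC-KO replicate 2 these cells had a median of 0.140% of their UMIs in the 8 enterocyte markers, against 0.369% in the other ENTERO-PRO cells of that library. The part of this in the result was not tested.

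The Paneth cells had few mitotic UMIs in WT and more in APC-KO. The mean share in PANETH was 0.0253% and 0.0165% in WT and 0.171% and 0.0654% in APC-KO, and in PANETH-PRE 0.0341% and 0.0414% in WT and 0.0521% and 0.0912% in APC-KO. Neither type overlapped between the groups. With UMIs summed over cells in place of the mean over cells, PANETH had 0.0245% and 0.0162% in WT and 0.0569% and 0.0649% in APC-KO, so the difference fell from 0.0975 to 0.0406 percentage points. In PANETH, Mki67 had 9.49 and 8.70 CPM in WT against 77.4 and 45.5 CPM in APC-KO, from 14, 18, 14 and 84 UMIs. By edgeR it rose by 1.83 on the log2 scale, with SE 0.38 and adjusted p 0.0191 from 2 libraries per group. Top2a had 15.6 and 5.80 CPM in WT against 55.3 and 60.2 CPM in APC-KO (log2 fold change 1.85, SE 0.39, edgeR adjusted p 0.0197). Neither gene overlapped between the groups. In the free RNA Mki67 had 116 to 245 CPM and Top2a 124 to 222 CPM, above these values. In PANETH-PRE, Hmgb2 had 66.6 and 61.8 CPM in WT against 131 and 351 CPM in APC-KO (log2 fold change 2.05, SE 0.31, edgeR adjusted p 0.000156), and Mki67 17.9 and 25.2 CPM in WT against 28.0 and 67.3 CPM in APC-KO (1.49, SE 0.36, adjusted p 0.0267, edgeR). The Mki67 value of APC-KO replicate 1 rests on 3 UMIs. Hmgb2 had 621 and 544 CPM in the free RNA of WT and 339 and 726 CPM in that of APC-KO. These lie above its PANETH-PRE values in each library, and above its values in both lineages and in GP given below.

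The calls are 2 of 16 tested members in PANETH, where edgeR called 1.41% of 6942 genes, and 2 of 9 in PANETH-PRE, where it called 1.53% of 5568. Of the 16, 15 were higher, against 49.4% of all genes, with a median of 0.96. In PANETH-PRE all 9 tested genes were higher, against 51.5% of all genes, with a median of 0.66. In the sum of both types, the Paneth lineage, 1 of 21 was called, Mki67 (1.64, SE 0.27, adjusted p 0.0239, edgeR), where 0.663% of 8599 genes were. All 21 were higher, against 50.5% of all genes. Kif23, with its CPM given below, passed the low-count filter only through the APC-KO libraries. Such a member could be tested only if higher in APC-KO, so the count of 21 is in part built in. The same filter held for all genes. The Mki67 call was lost without WT replicate 1 (1.71) or WT replicate 2 (1.64). Both APC-KO libraries lay above both WT libraries in CPM for 19 of these 21, but also for 48.5% of all genes in that sum. The CPM of PANETH cells moves with their granule genes. The Defa genes, AY761184, Lyz1, Mmp7, Itln1 and Ang4 took a mean of 59.2% and 59.8% of a PANETH cell's UMIs in WT and 21.0% and 33.9% in APC-KO. With these 27 genes out of the total, the mean mitotic share in PANETH was 0.0617% and 0.0392% in WT and 0.181% and 0.0920% in APC-KO, without overlap. The part of the granule genes in the fold changes was not tested.

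Both APC-KO libraries differed from WT in other measures. The 16 PANETH cells of APC-KO replicate 1 had a median of 3552 UMIs, against 12643.5 and 10371.5 in WT and 5954 in APC-KO replicate 2. Their sum held 1442 CPM over the 8 enterocyte markers, with 1 of the 8 at 0, against 192 to 488 CPM in the other libraries, and 486 CPM over the 6 ISC markers against 480 to 698 CPM. Their mean share of S phase genes was 0.191%, against 0.0268% to 0.0561%. In APC-KO replicate 2, the 7 goblet markers summed to 76984 CPM in PANETH, against 18873 to 30838 CPM in the other libraries. In PANETH-PRE of APC-KO replicate 2 the 7 Paneth markers summed to 42791 CPM, against 100229 to 132501 CPM, and the 6 ISC markers to 1193 CPM, against 373 to 581 CPM. The part of these in the result was not tested. Without APC-KO replicate 1, Mki67 was at 1.52 and Top2a at 1.77 in PANETH, both called. Neither was called without WT replicate 1, WT replicate 2 or APC-KO replicate 2, nor with cells thinned to 2000 UMIs, and in PANETH-PRE the Mki67 call was lost without each library in turn and with the replicate block (1.23). The Hmgb2 call in PANETH-PRE was lost without WT replicate 2 (1.81), APC-KO replicate 1 (2.30) or APC-KO replicate 2 (1.14).

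**Figure D5:**
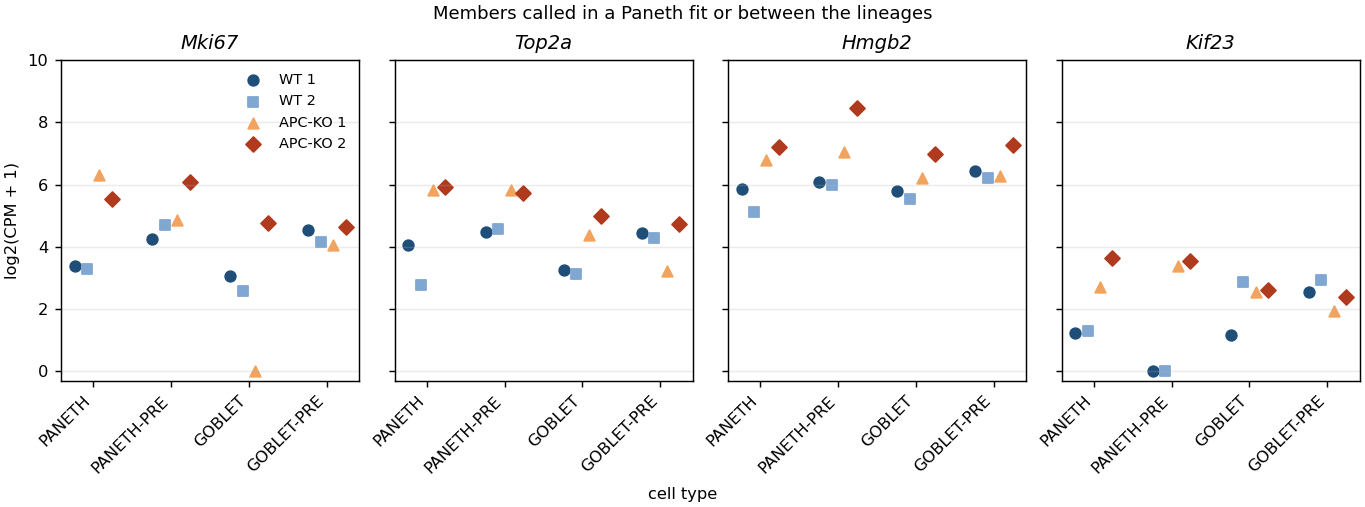
Levels of 4 mitotic genes in the Paneth and goblet types as log2(CPM + 1) by library. In PANETH both APC-KO values of each gene lie above both WT values, and in GOBLET-PRE the APC-KO replicate 1 values lie among or below those of WT.

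Few cells of the Paneth lineage had at least 10 mitotic UMIs of 2000. There were 0 of 226 and 0 of 298 in WT, which allows shares of up to 1.33% and 1.01% by 3 counts and up to 1.62% and 1.23% by the exact interval, 1 of 27 in APC-KO replicate 1 and 23 of 864 (2.66%, 1.69% to 3.97%) in APC-KO replicate 2, and 29 cells of the last lay between 8 and 12 UMIs. Without Hmgb2 the APC-KO counts were 0 and 7 cells (0.810% in APC-KO replicate 2), and no cell of the 4 libraries reached 20 UMIs. The difference between the genotypes was not tested. The share with at least 5 UMIs was 0.442%, 0.336%, 29.6% and 8.91%. The goblet lineage had 1 of 1426, 0 of 1511, 0 of 209 and 6 of 1321 cells with at least 10. Of the 23 cells of APC-KO replicate 2, 16 were PANETH-PRE, as were 574 of the 841 other Paneth lineage cells of that library. The median share of UMIs in the 7 Paneth markers was 1.43% in the 23 cells, from 0.101% to 21.7%. It was 5.91% in the other Paneth lineage cells of that library. The median depth of the 23 cells was 5633 UMIs against 4387. Doublets were not removed here, and whether these barcodes hold 1 cell was not tested.

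The genotype difference itself differed between the Paneth and goblet lineages for 3 of 35 tested genes, where edgeR called 2.26% of 10265 genes. The difference of the log2 fold changes, Paneth lineage minus goblet lineage, was 1.11 for Mki67 (SE 0.29, adjusted p 0.0182, edgeR), 0.66 for Hmgb2 (SE 0.19, adjusted p 0.0441, edgeR) and 2.82 for Kif23 (SE 0.75, adjusted p 0.0236, edgeR). Mki67 had 12.0, 11.6, 59.0 and 58.5 CPM in the Paneth lineage and 20.6, 14.8, 14.1 and 24.5 CPM in the goblet lineage, with the 2 WT libraries first. Kif23 had 0.956, 1.20, 6.94 and 11.0 CPM in the Paneth lineage and 4.42, 6.55, 3.02 and 4.36 CPM in the goblet lineage. The Paneth lineage sum of APC-KO replicate 1 held 288181 UMIs from 27 cells. Its Kif23 value there, like those of WT, rests on few UMIs. Hmgb2 had 59.8, 38.7, 118 and 268 CPM in the Paneth lineage and 82.0, 67.9, 76.5 and 148 CPM in the goblet lineage. Of the 35 genes 30 had a positive difference, against 49.8% of all genes, with a median of 0.47. Leaving out WT replicate 1 ended each of the 3 edgeR calls, with 4 genes under an unadjusted p of 0.05. Only 1 of the 3 passed without WT replicate 2, and 1 without APC-KO replicate 2. With cells thinned to 2000 UMIs edgeR called 0, with 3 genes under an unadjusted p of 0.05, and the DESeq2 Wald test called 0, with 4 under it and an adjusted p of NA for 2 of the 3.

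The remaining fits called few mitotic genes or none. GOBLET, GOBLET-PRE, EC, EEC-PRE, NON-EC and TUFT had 0 calls by edgeR among 5, 30, 8, 16, 8 and 17 tested genes, where it called 0.0837%, 0.00974%, 0%, 0.654%, 0.113% and 0.169% of all genes. Higher at an unadjusted p under 0.05 were 4 of 5 in GOBLET (5.79% of all genes), 2 of 30 in GOBLET-PRE (4.92%), 1 of 8 in EC (5.02%), 2 of 16 in EEC-PRE (5.40%), 4 of 8 in NON-EC (4.66%) and 4 of 17 in TUFT (6.21%). In GOBLET all 5 tested genes were higher, against 50.9% of all genes, with a median of 1.00. Top2a there had 8.63 and 7.79 CPM in WT against 19.6 and 30.6 CPM in APC-KO (1.65, SE 0.42, adjusted p 0.261, edgeR). It passed the low-count filter only through the APC-KO libraries. Its direction was thus set by the filter, and the count of 5 higher genes is in part built in. In GOBLET-PRE 21 of 30 were higher, against 49.9%, with a median of 0.29, and Kif23 (-0.50), Cks1b, a Cdk-binding subunit (-0.50), and Cdk1 (-0.38) had the lowest values. EEC-PRE had the lowest value of any fit, Cenpf, an outer kinetochore protein, at -1.26 (SE 0.49, adjusted p 0.386, edgeR). In GP, fitted after the data had been seen with 7 cells in APC-KO replicate 1, Hmgb2 alone was called of 22 tested genes, where edgeR called 2.87% of all genes. It had 154 and 123 CPM in WT against 292 and 262 CPM in APC-KO (1.01, SE 0.20, adjusted p 7.97e-05, edgeR), and lost the call without WT replicate 1, WT replicate 2 or APC-KO replicate 2 and with the replicate block (1.06).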

How the data were processed

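The 4 libraries (10x Genomics, 3' v3.1) were processed with Cell Ranger 3.0.2 and STAR on mm10, per the submitters' processing notes. The deposited matrices hold UMI counts per gene and barcode, not filtered for cells. The authors' deposited cell tables give the count of UMIs and genes, the percent of mitochondrial UMIs, and other values, the library and cell type name of each kept cell, per the file headers. How cells were chosen is not given in the sources used here. Kept cells had 901 to 2999 genes and under 7% mitochondrial UMIs. No doublet caller was run.

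UMIs were summed per library and type. CPM are per 1000000 of these raw sums. APC-KO was compared with WT with edgeR 4.0.16 (R 4.3.3; quasi-likelihood test, TMM, filterByExpr, Benjamini-Hochberg adjustment over all genes tested, threshold 0.05) in types with at least 10 cells in each library, and in GP, SEC-PRO and TUFT as fits added after seeing the data. The low-count filter keeps a gene by its level in 2 libraries of whichever genotype. A gene below its cutoff in both libraries of 1 genotype was thus tested only if higher in both of the other. The standard error is the log2 fold change divided by the root of F. The difference between lineages was tested as an interaction with the library as a block. Alternatives used DESeq2 1.42.0, thinned cells, a free RNA profile, other filters and left-out libraries. An exact permutation test of 2 libraries against 2 cannot go below 0.333, so none is given. Scripts were tested on simulated data. The members, the gene lists and the genes named (called members, the extremes of a fit and the Paneth examples) were chosen with earlier results of these data known. Gene positions are from GENCODE vM21 (GRCm38), matched for 99.9% of gene identifiers, and promoters from RefSeq.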

Additional observations from a re-analysis of the deposited data

Results flagged for a closer look

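For 3 genes the difference between APC-KO and WT was itself different in the Paneth and the goblet lineage, by the interaction term of edgeR. The log2 fold change in the Paneth lineage minus that in the goblet lineage was 1.11 for Mki67, 0.66 for Hmgb2 and 2.82 for Kif23. Kif23 had 0.956 and 1.20 CPM in the Paneth lineage of WT, and that lineage held 27 cells in APC-KO replicate 1. The Kif23 value thus rests on few UMIs in these libraries. None of the 3 passed with WT replicate 1 left out, with thinned cells or by the DESeq2 Wald test, where Kif23 had no value in thinned cells and the adjusted p was NA for 2 of the 3. The granule gene share and the library that move with these values are given beside them in the report, and their part was not tested.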

How the results depend on the processing

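With each library left out in turn, the calls ranged from 0 to 4 over all cells, 0 to 12 in ISC, 0 to 10 in SEC-PRO, 0 to 21 in ENTERO-PRO, 0 to 3 in PANETH, 0 to 1 in PANETH-PRE, 0 to 5 in the Paneth lineage, 0 to 3 for the interaction, 0 to 2 in EC, 0 to 1 in EEC-PRE and GP, and 0 to 4 in NON-EC and TUFT. Median log2 fold changes ranged from -1.15 to 1.03 over all cells, 0.28 to 0.87 in ISC, 0.19 to 0.86 in SEC-PRO, 0.42 to 1.67 in ENTERO-PRO, 0.62 to 1.501 in PANETH, 0.54 to 1.30 in PANETH-PRE, 0.74 to 1.35 in the Paneth lineage, 0.29 to 1.03 for the interaction, 0.58 to 1.25 in GOBLET, -0.056 to 0.70 in the goblet lineage, -0.11 to 1.03 in EC, -0.95 to 0.20 in EEC-PRE and -0.29 to 1.27 in NON-EC. Log2 fold changes ranged from -1.70 to 1.01 for Mki67, -1.15 to 1.53 for Top2a and -0.82 to 1.31 for Hmgb2 over all cells, -1.17 to 1.34 for Tacc3 and -0.77 to 1.10 for Ckap2 in ISC, and -0.43 to 1.26 for Ckap2l and -0.60 to 1.42 for Prc1 in SEC-PRO. Those of Aurka (-8.43 to 1.45) and Ttk (-7.90 to 1.27) in SEC-PRO include fits against 0 UMIs, which depend on the prior count. Differences of the mean share, APC-KO minus WT in percentage points, ranged from -0.0510 to 0.124 over all cells, -0.00121 to 0.0266 in EC, -0.0457 to 0.0219 in EEC-PRE, -0.00353 to 0.0123 in GOBLET-PRE, -0.00153 to 0.0136 in the goblet lineage, -0.00694 to 0.0263 in NON-EC and -0.0257 to 0.0305 in TUFT. That of the share of cells with at least 10 mitotic UMIs ranged from -4.42 to 11.1 over all cells and 2.66 to 3.70 in the Paneth lineage.

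The DESeq2 Wald test called 0 in ISC, SEC-PRO, PANETH, the Paneth lineage, GP and the interaction and 1 in PANETH-PRE, and gave a median of -0.0099 in EEC-PRE. With DESeq2 size factors in edgeR the Paneth lineage had 2 calls. With only types of at least 20 cells in each library, the calls summed over types were 0 in place of 12. With the replicate block the calls were 2 in ISC, 1 in SEC-PRO and PANETH-PRE, 3 in the Paneth lineage and 0 in GP, with medians of 1.18 in PANETH and 1.31 in the Paneth lineage, and Mki67 over all cells was at -0.22. Same-numbered libraries deviated with a correlation of -0.247 over all cells, so the numbers were not shown to pair them. The crossed replicate block, added after seeing the data, gave 0 calls over all cells, with Mki67 at -0.23. Without a low-count filter the calls were 11 in ENTERO-PRO, 6 in the Paneth lineage, 3 in NON-EC and 1 in EC, GOBLET-PRE and the goblet lineage, with medians of 1.72 in ENTERO-PRO, 1.36 in GOBLET, 1.35 in PANETH-PRE and -0.23 in EEC-PRE. With cells thinned to 2000 UMIs the calls were 1 in ISC and PANETH-PRE and 0 in PANETH and the interaction, with medians of 1.73 in PANETH, 1.15 in PANETH-PRE, 0.69 for the interaction and 0.19 in NON-EC, and share differences of 0.249 in ISC, 0.00314 in GP and -0.00147 in NON-EC. With free RNA subtracted at 5% the calls were 1 in PANETH-PRE and 6 in the Paneth lineage, with medians of 1.98 in PANETH, 2.38 in the Paneth lineage, 1.34 in GOBLET and 1.20 for the interaction. Summed UMIs gave share differences of 0.0406 in PANETH and 0.0466 in the Paneth lineage. Without Hmgb2 they were 0.00334 in GP, -0.00431 in TUFT and 0.0550 in the Paneth lineage. Without cells of at least 10 mitotic UMIs, a choice made on the measure itself that lowers it by construction, they were -0.0590 in ISC, 0.0916 in SEC-PRO, 0.00821 in ENTERO-PRO, 0.00681 in EEC-PRE, -0.000642 in GP and -0.0138 in NON-EC. For APC-KO replicate 1 this left 3 ISC cells, 1 SEC-PRO cell and 7 ENTERO-PRO cells. The ISC shares were then 0.201% and 0.166% in WT and 0.0833% and 0.166% in APC-KO. Those of SEC-PRO were 0.188% and 0.166% in WT and 0.35% and 0.187% in APC-KO. In the Paneth lineage the difference in the share of cells was 18.9 at 5 UMIs, 0 at 20 UMIs and 0.405 without Hmgb2. The cause of these changes was not tested. The 356 cells of APC-KO replicate 1 limit the depth of every type in it.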
